A study of Mus musculus with 12 samples.

Results

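Clusters of iCLIP reads that lay outside every annotated gene body made up 12932 of the 124941 clusters that the authors listed for 3 RNA-binding proteins in mouse N2A neuroblastoma cells. A cluster was taken when its centre fell in no gene body of any biotype in the RefSeq annotation of GRCm38.p6 (mm10), which has 49980 genes with coordinates. The table of Puf60 with exon 5 had 4033 such clusters among 36227 (11.1%), that of Puf60 without exon 5 had 4265 among 39454 (10.8%), and that of Rbm38 had 4634 among 49260 (9.41%). They were split at 5000 nt from the nearest gene end. Nearer than that lay 1442, 1517 and 1827 clusters of the tables in the same order, and 5000 nt or farther lay 2591, 2748 and 2807.

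Each protein was a Flag-tagged transgene, induced with doxycycline (1 µg/ml) in N2A Flp-in cells, and was crosslinked to RNA with 150 mJ/cm2 of ultraviolet light before pull-down with the anti-Flag M2 antibody. There were 12 samples, with 3 CLIP libraries and 1 size-matched input for each protein. Puf60 with exon 5 was induced for 48 h for its CLIP libraries and for 24 h for its input, whereas CLIP and input of Puf60 without exon 5 and of Rbm38 were induced for 24 h. Isoform and induction time cannot be told apart, and the labels do not say whether the 3 CLIP libraries came from separate cultures.

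Puf60, a relative of the U2 auxiliary factor U2af2, acts in splicing and contacts pyrimidine tracts, which lie ahead of 3′ splice sites in introns. Rbm38 is an RNA-recognition-motif protein best known for binding U-rich and GU-rich elements in 3′ untranslated regions. RNA outside annotated genes can come from transcription that runs on past a gene's 3′ end, from longer forms of a 3′ end than the annotation holds, from the long primary transcripts out of which microRNA hairpins are cut, and from genes that are not annotated.

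The values are the authors' own comparison of CLIP with input in 1 table per protein, with no value per library. Replicate spread and library depth are therefore unknown, so that nothing could be tested across replicates. Enriched here means an adjusted p below 0.05 in the authors' deposited table. Some clusters outside genes, 215 with exon 5, 206 without exon 5 and 799 for Rbm38, carry a p under 0.05 beside an adjusted p of 1 there, by a rule not given in the sources used here, and count as not enriched. For Rbm38 these are 17.2% of the clusters outside genes and 11.1% of those in gene bodies, so that its shares below depend on this rule. They are given also with an adjusted p recomputed by Benjamini-Hochberg over all deposited p-values of a table (called recomputed), which calls 42.9%, 39.1% and 61.6% of the whole tables of Puf60 with exon 5, Puf60 without exon 5 and Rbm38. Shares of clusters are given with 95% Wilson intervals, and differences of shares with Newcombe intervals. Both cover counting error only and treat neighbouring clusters as independent, which they are not. The strand of a cluster was read from its start position and matched the RefSeq strand of the gene for 93.1%, 93.4% and 94.2% of clusters inside single genes.

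The sequence of a cluster can be shown where it lies inside the promoter window of a gene, which RefSeq gives as 250 bases before to 50 bases after the start. Of the enriched clusters outside genes, 4 of Puf60 with exon 5, 9 of Puf60 without exon 5 and 6 of Rbm38 lay wholly in such a window. Those below were picked because they carry the stretches of pyrimidines or of G and U that the proteins are known for, together with 1 that does not. The choice does not show how common such stretches are. Sequences are those of the cluster's own strand, 5′ to 3′, in DNA letters from the GRCm38.p6 table. Capitals mark unbroken runs of at least 6 bases that are C or T in the clusters of Puf60, and G or T in those of Rbm38.
Gm35667, chr3:127970701-127970800, plus strand: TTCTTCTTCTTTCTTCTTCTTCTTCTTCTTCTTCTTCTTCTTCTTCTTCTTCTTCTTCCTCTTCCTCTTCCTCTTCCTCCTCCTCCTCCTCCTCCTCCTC
Spred2, chr11:19924301-19924350, plus strand: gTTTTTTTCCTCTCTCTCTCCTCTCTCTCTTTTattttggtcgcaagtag
Cnga3, chr1:37218151-37218250, plus strand: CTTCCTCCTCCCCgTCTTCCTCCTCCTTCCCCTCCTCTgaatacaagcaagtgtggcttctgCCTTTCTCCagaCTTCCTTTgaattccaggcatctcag
Trio, chr15:28025886-28025935, minus strand: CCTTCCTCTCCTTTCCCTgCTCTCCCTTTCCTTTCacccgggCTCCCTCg
Olfr450, chr6:42817401-42817450, plus strand: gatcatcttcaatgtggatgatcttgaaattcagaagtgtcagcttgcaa
Rheb, chr5:24842436-24842485, minus strand: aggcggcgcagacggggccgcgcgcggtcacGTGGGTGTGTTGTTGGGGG
Snhg1, chr19:8723451-8723500, plus strand: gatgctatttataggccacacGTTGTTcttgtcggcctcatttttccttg

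The cluster in the window of Gm35667 was 100% pyrimidine and stood 4.82 (log2 over input) with exon 5 and 3.97 without exon 5 by the authors' deposited tables. The cluster at the start of Spred2, which encodes an inhibitor of Ras signalling, was 80% pyrimidine and stood at 2.34 in the authors' deposited table of Puf60 with exon 5. Cnga3 encodes a subunit of the cyclic nucleotide-gated channel of cone photoreceptors, and Trio a guanine nucleotide exchange factor. Their clusters were 73% and 88% pyrimidine, and they stood at 3.22 and 1.64 on the log2 scale in the authors' deposited table of Puf60 without exon 5. The cluster at the odorant receptor gene Olfr450, with 48% pyrimidine and no run of 6, stood at 2.95 with exon 5 and 3.68 without exon 5 by the authors' deposited tables. On the other strand of the Gm35667 window, at chr3:127970736-127970785, a cluster with 0% pyrimidine was also enriched without exon 5, at 3.48 in the authors' deposited table. The clusters at Gm33272, at 4.26 with exon 5 and at 3.97 and 3.83 without exon 5 by the authors' deposited tables, also held no run of 6. Nor did that at H1f10, at 1.17 without exon 5 in the authors' deposited table. The cluster at H2ac24, at 1.39 without exon 5 in the authors' deposited table, did hold such runs. A pyrimidine run was thus absent from several enriched clusters, and from most of the few without exon 5 in these windows. Many promoter stretches lack one as well, as given below, so that this is a description only.

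For Rbm38, the cluster at Rheb, which encodes a GTPase that activates mTORC1, was 70% G or T and stood at 1.76 in the authors' deposited table. The cluster at Snhg1, a host gene of small nucleolar RNAs, was 62% G or T and stood at 3.40 in the authors' deposited table. Runs of this length are common in promoters. Taken on the gene's strand, 45.4% of 197106 consecutive 50-base tiles from 32851 promoter windows held 6 or more C or T in a run. A run of 6 or more G or T was held by 36.2%. Of 98553 tiles of 100 bases, the length of the clusters at Gm35667 and Cnga3, 69.2% and 59.5% held such runs. A run in a single cluster is therefore a description only. Over the 4, 9 and 6 clusters the median share of pyrimidine was 64%, 50% and 62.5%, against 62%, 57% and 54% for the 14, 14 and 17 clusters of the same windows that lay outside genes and were not enriched. For Rbm38 the median share of G or T was 59.5% over the 6 and 46% over the 17.

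MicroRNA genes are the other members with sequences at hand, since clusters flanked their hairpins. The hairpin is the whole annotated gene, so that the rest of the primary transcript counts as outside. Of 34 microRNA genes with a cluster under 5000 nt away, 32 had a mature sequence in the RefSeq table. Those below belong to the hairpins whose flanks held the clusters described further on. Capitals mark the seed, bases 2 to 8, with which a microRNA pairs to its targets.
miR-138-5p (chr9:122682898-122682920, plus strand): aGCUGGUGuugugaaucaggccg
miR-137-3p (chr3:118433901-118433923, plus strand): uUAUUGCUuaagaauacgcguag
miR-17-5p (chr14:115043684-115043706, plus strand): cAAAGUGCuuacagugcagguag
miR-20a-5p (chr14:115044183-115044205, plus strand): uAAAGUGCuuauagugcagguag
miR-19a-3p (chr14:115044048-115044070, plus strand): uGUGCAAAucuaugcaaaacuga
miR-23a-3p (chr8:84208563-84208583, plus strand): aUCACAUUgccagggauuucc
let-7a-5p (chr13:48538239-48538260, minus strand): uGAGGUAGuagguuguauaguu
miR-298-5p (chr2:174267553-174267575, minus strand): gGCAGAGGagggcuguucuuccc
miR-17-5p and miR-20a-5p share their seed, and lie with miR-19a-3p in 1 cluster of hairpins, whereas the other seeds differ from each other.

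Clusters outside genes were enriched less often than those inside in each table by the authors' calls, but the size of the gap depended on the call and on a few crowded gaps. In the table of Puf60 with exon 5, 1517 of 4033 were enriched (37.6%, 36.1 to 39.1), against 39.3% of the clusters in gene bodies and 39.1% of the whole table. For Puf60 without exon 5 the count was 1467 of 4265 (34.4%, 33.0 to 35.8), against 36.3% in gene bodies and 36.1% in all. Rbm38 had 2045 of 4634 enriched (44.1%, 42.7 to 45.6), against 51.6% in gene bodies and 50.9% in all. Outside minus inside came to -1.72 percentage points for Puf60 with exon 5 (-3.30 to -0.13) and -1.89 for Puf60 without exon 5 (-3.39 to -0.36). For Rbm38 it was -7.45 points (-8.95 to -5.94). With the recomputed calls the differences were -1.40 (-3.00 to 0.23), -1.31 (-2.84 to 0.24) and -1.76 (-3.25 to -0.29), with intervals that overlap. Without the 10 gaps between genes that held most clusters they were 1.95 (0.13 to 3.79), 0.85 (-0.85 to 2.58) and -2.25 (-4.00 to -0.50).

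When enriched, a cluster outside genes had a median log2 fold over input of 3.0 with exon 5, 3.05 without exon 5 and 1.95 for Rbm38. In gene bodies the medians were 2.88, 2.78 and 2.36. Clusters were sparse outside genes. Per Mb, the stretches under 5000 nt from a gene held 5.47, 5.75 and 6.93 clusters, and those farther away 2.17, 2.30 and 2.35, whereas gene bodies held 25.8, 28.2 and 35.8. Both strands were about equally used, with 50.2%, 48.5% and 54.2% of clusters on the plus strand.

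Near genes the enriched share was higher than far from them in each table, with the widest difference for Rbm38, but for Puf60 this rested on crowded gaps. Under 5000 nt from a gene end 925 of 1827 Rbm38 clusters were enriched (50.6%), against 1120 of 2807 at 5000 nt or more (39.9%), a difference of 10.7 points (7.80 to 13.6). For Puf60 with exon 5 the shares were 40.8% (588 of 1442) and 35.9% (929 of 2591), which differ by 4.92 points (1.80 to 8.06). For Puf60 without exon 5 they were 35.7% (542 of 1517) and 33.7% (925 of 2748), and the interval of that difference, 2.07 points (-0.90 to 5.07), spans 0. That difference was 4.14 points (1.25 to 7.06) when a log2 fold of at least 1 was asked for as well, and 3.35 (0.37 to 6.37) without the 3 gaps described with the sites of all tables. Much of each table sits in a few places: the 10 gaps between genes with most clusters held 24.9%, 21.5% and 27.5% of the clusters outside genes. Without these 10 gaps near minus far was -0.95 points for Puf60 with exon 5 (-4.46 to 2.58), -2.79 for Puf60 without exon 5 (-6.07 to 0.51) and 7.59 for Rbm38 (4.21 to 10.9). With the recomputed calls over all gaps it was 3.92, 2.16 and 8.87 points.

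**Figure D1:**
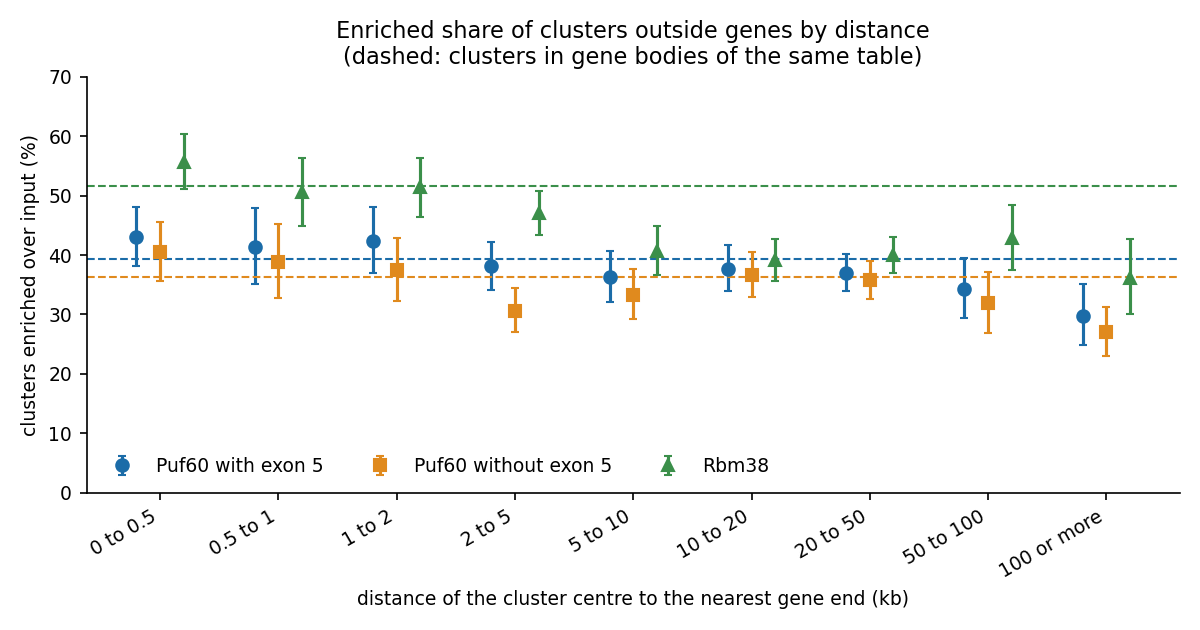
Share of clusters enriched over input (y axis, percent) by the distance of the cluster's centre to the nearest gene end (x axis, kb), for the 3 tables; bars are 95% Wilson intervals and dashed lines give the share in gene bodies of the same table. Within 500 nt the shares were 43.0% with exon 5, 40.5% without exon 5 and 55.7% for Rbm38, and at 100 kb or more they were 29.8%, 27.0% and 36.1%.

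The decline with distance was gradual for Rbm38, with 47.0% of 708 clusters enriched between 2000 and 5000 nt and 40.7% of 545 between 5000 and 10000 nt. The members just inside and just outside the limit of 5000 nt were as follows. Between 4000 and 5000 nt the shares were 39.3%, 31.5% and 40.4% for Puf60 with exon 5, without exon 5 and Rbm38, and between 5000 and 6000 nt they were 34.0%, 32.2% and 37.7%.

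Past the 3′ ends of genes Rbm38 was enriched more often than Puf60. Clusters past a gene's 3′ end on the gene's own strand, where run-on transcripts and longer 3′ ends would lie, were the largest class near genes, with 481, 522 and 711 clusters. Of these 59.1% were enriched for Rbm38 (55.4 to 62.6), against 34.3% for Puf60 with exon 5 (30.2 to 38.7) and 26.6% without exon 5 (23.0 to 30.6). The recomputed calls gave 73.8% for Rbm38, against 37.6% with exon 5 and 29.7% without exon 5. Ahead of a gene's 5′ end on the same strand Rbm38 had 29.5% of 302 clusters enriched (24.6 to 34.8), against 48.6% of 218 with exon 5 (42.1 to 55.2) and 48.1% of 237 without exon 5 (41.8 to 54.4). This gap depended on the call and narrowed with runs counted once, but was kept with RefSeq strand only and with the nearest protein-coding gene. With the latter the shares were 30.7% for Rbm38, against 44.9% with exon 5 and 42.9% without exon 5. The recomputed calls gave 53.0% for Rbm38, against 54.6% with exon 5 and 51.1% without exon 5. With each run of neighbouring clusters counted once, 44.6% of runs held an enriched cluster for Rbm38, against 53.9% with exon 5 and 48.2% without exon 5. At 5000 nt or more ahead of a 5′ end the shares were 44.8%, against 44.1% and 40.7%.

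On the opposite strand past a 3′ end the shares were 46.5%, 42.3% and 52.9%, and on the opposite strand ahead of a 5′ end 42.7%, 40.2% and 54.7%, in the order Puf60 with exon 5, without exon 5 and Rbm38. For 402, 401 and 411 of the near clusters the strand of the nearest gene was unknown. Counting runs once past a 3′ end, at least 1 enriched cluster was present in 66.6% of the 371 runs past a 3′ end for Rbm38, against 45.1% of 293 with exon 5 and 41.8% of 294 without exon 5. Genes with any such cluster past their 3′ end numbered 284 with exon 5, 284 without exon 5 and 353 for Rbm38. Of these genes 129, 120 and 239 had at least 1 enriched cluster there, and 8, 3 and 31 had 3 or more. Rbm38 also had more clusters there, and 50.9% of all its clusters were enriched, against 39.1% with exon 5 and 36.1% without exon 5.

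Across the annotated 3′ ends of protein-coding genes Rbm38 and Puf60 ran in opposite directions inside the gene. In the last 500 nt of the gene 90.9% of 3346 Rbm38 clusters were enriched, against 18.6% of 1799 with exon 5 and 14.0% of 2275 without exon 5. In the first 500 nt beyond the end the Rbm38 share was 75.2% of 101 clusters (66.0 to 82.6). It was 53.0% of 83 between 500 and 1000 nt and 57.1% of 112 between 1000 and 2000 nt. Farther out it was 62.9% of 178 between 2000 and 5000 nt and 17.8% of 101 between 20 and 50 kb. The recomputed calls gave 84.2% in the first 500 nt, 76.4% between 2000 and 5000 nt and 40.6% between 20 and 50 kb. For Puf60 the first 500 nt beyond the end had 43.1% of 72 clusters enriched with exon 5 (32.3 to 54.6) and 45.5% of 66 without exon 5 (34.0 to 57.4). Both lay above the last 500 nt inside by more than the intervals, and at 5 to 20 kb past the end the shares were 15.6% and 20.4%.

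**Figure D2:**
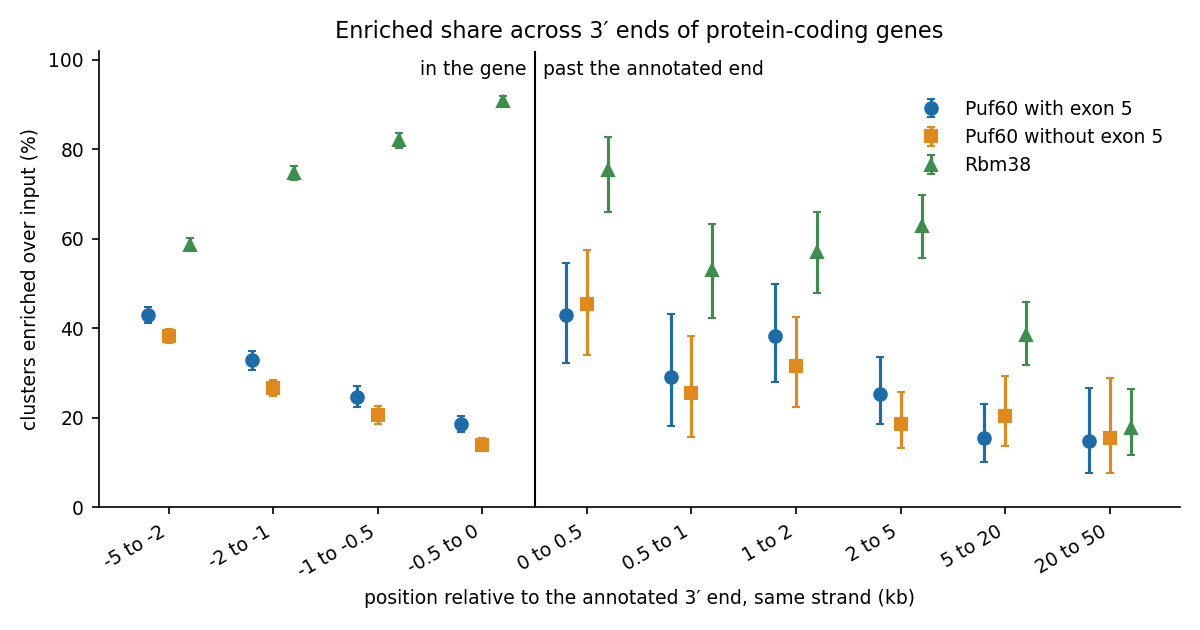
Share of clusters enriched over input (y axis, percent) by position relative to the annotated 3′ end of protein-coding genes (x axis, kb, negative inside the gene), for clusters on the gene's strand; bars are 95% Wilson intervals. Rbm38 stood at 90.9% in the last 500 nt of the gene and at 75.2% in the first 500 nt past it, whereas Puf60 with exon 5 stood at 18.6% and 43.1%.

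The genes described next have many Rbm38 clusters in the 5000 nt beyond their 3′ end, the 6 protein-coding genes with most and a few in which nearly all were enriched, and were picked after their values were seen. Lnpep (chr17:17527723-17624489, minus strand), which encodes an insulin-regulated aminopeptidase, had 18 Rbm38 clusters past its end and each was enriched, and their log2 folds ran between 1.92 and 5.18 around a median of 2.82 in the authors' deposited table. There, 4 clusters of Puf60 with exon 5 lay between -0.45 and 0.32, and the 6 without exon 5 between -0.74 and 0.05, in the authors' deposited tables, and none of these was enriched. The ranges do not overlap, and the Rbm38 clusters ran from 213 to 4488 nt past the end without a break of 1000 nt.

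Ago2 (chr15:73101625-73184947, minus strand), which encodes the Argonaute protein that carries microRNAs, had 12 of 14 Rbm38 clusters enriched, between 0.03 and 3.95 around a median of 1.90 in the authors' deposited table. Puf60 with exon 5 had 1 of 6 enriched there, between -0.99 and 0.69, and Puf60 without exon 5 none of 8, between -1.77 and 0.20, in the authors' deposited tables. The strands of Ago2 and of Dusp4 were inferred from the clusters inside them. Abhd2, a serine hydrolase gene, had 9 of 12 Rbm38 clusters enriched, with a median of 2.30, and 4 clusters with exon 5 between -1.45 and -0.41 in the authors' deposited tables. Dusp4 (chr8:34807610-34819894, plus strand), which encodes a MAP kinase phosphatase, and the lncRNA Oip5os1 had 8 of 8 and 9 of 9 Rbm38 clusters enriched, with medians of 2.82 and 2.90 in the authors' deposited table. The Puf60 tables listed 2 and 3 clusters past Dusp4 and none past Oip5os1, and none was enriched.

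A high number of clusters was not always a high fold. Olfml2a, an olfactomedin-like gene, had 12 Rbm38 clusters of which 2 were enriched, with a median of 0.00 in the authors' deposited table. Prcp (chr7:92875253-92934581, plus strand), which encodes a prolylcarboxypeptidase, led with 25 Rbm38 clusters, 12 of them enriched, between 0.01 and 2.01 in the authors' deposited table, and 22 by the recomputed calls. Both Puf60 tables listed 11 clusters there, of which 4 with exon 5 and 2 without exon 5 were enriched. The highest of those lay within 2 kb of the end and reached 3.50 with exon 5 and 3.01 without exon 5 by the authors' deposited tables. Sv2c (chr13:95959443-96132577, minus strand), a synaptic vesicle protein gene, had similar numbers of clusters in each table, 19, 21 and 20, of which 3, 1 and 11 were enriched. Their medians were -0.37 with exon 5, -0.49 without exon 5 and 0.73 for Rbm38 in the authors' deposited tables.

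**Figure D3:**
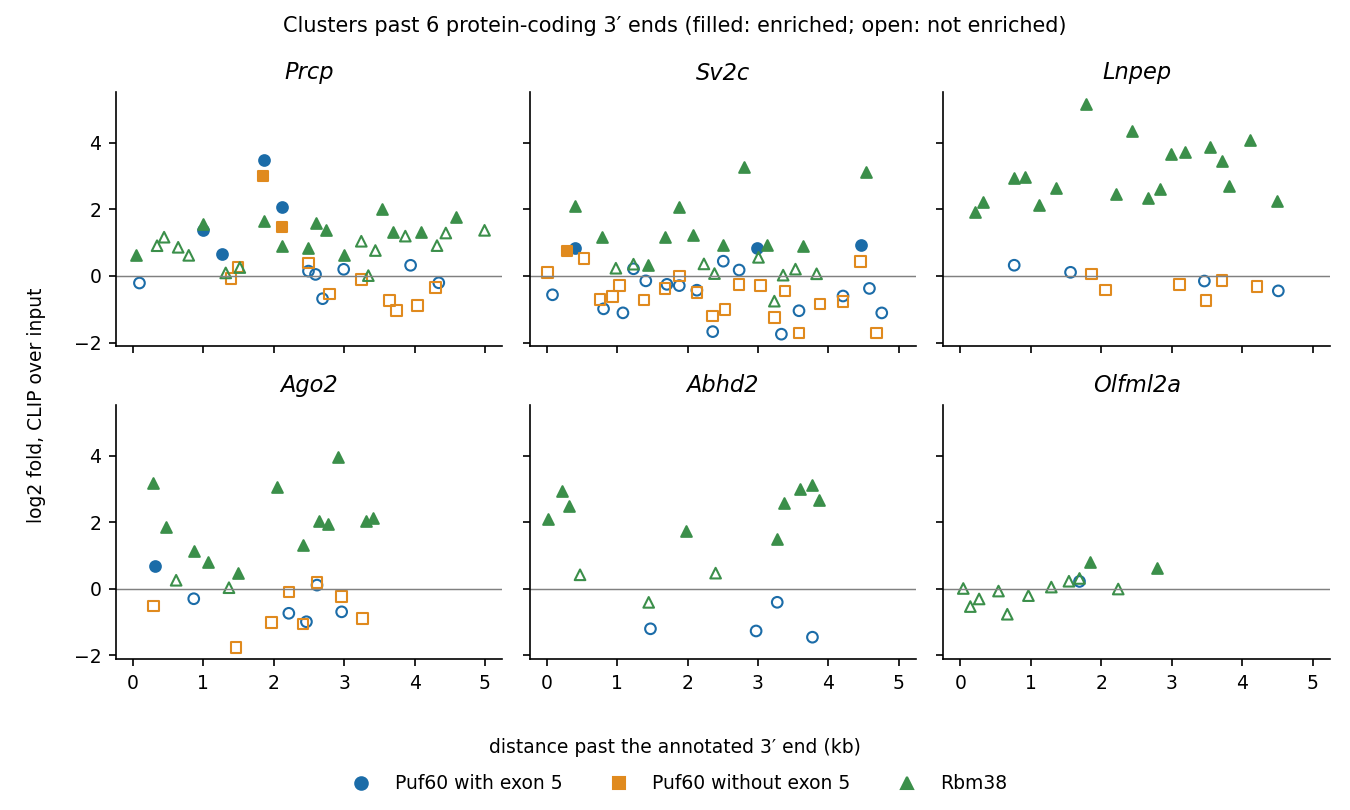
Log2 fold of CLIP over input (y axis) of each cluster on the gene's strand by its distance past the annotated 3′ end (x axis, kb), for the 6 protein-coding genes with most Rbm38 clusters there; filled symbols are enriched and open ones are not. Past Lnpep the 18 Rbm38 clusters lie at 1.92 or above and all Puf60 clusters at 0.32 or below, whereas the tables mix past Prcp and Sv2c.

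Around microRNA hairpins, clusters on the hairpin's strand numbered 49 at 14 genes with exon 5, 44 at 20 genes without exon 5 and 68 at 20 genes for Rbm38. Enriched were 23 (46.9%, 33.7 to 60.6), 22 (50%, 35.8 to 64.2) and 25 (36.8%, 26.3 to 48.6), with median log2 folds of 3.13, 2.95 and 1.87. The intervals include the shares of the whole tables for both Puf60 isoforms, and the Rbm38 share lies below its 50.9%. By the recomputed calls the Rbm38 count was 42 (61.8%, 49.9 to 72.4), beside 61.6% of its whole table.

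Mir138-1, whose product is abundant in neurons, held the most clusters. In the 5000 nt ahead of it 5 of 17 clusters with exon 5, 5 of 15 without exon 5 and 3 of 24 for Rbm38 were enriched. The recomputed calls gave 5, 6 and 13, so that the lower share of Rbm38 there rests on the authors' adjusted p. The highest Puf60 log2 folds lay beside the hairpin, at distances counted to the cluster's centre. Puf60 without exon 5 had 4.68 at 101 nt ahead and 5.06 at 276 nt beyond it, and Puf60 with exon 5 had 4.08 at 351 nt ahead and 3.84 at 276 nt beyond it, in the authors' deposited tables. Rbm38 stood at -0.32 at 151 nt ahead of the hairpin and at 2.86 at 551 nt beyond it in the authors' deposited table. At the hairpins of miR-17-5p, miR-19a-3p and miR-20a-5p, which belong to a cluster known as an oncogene, Puf60 was enriched with values of 2.11 to 4.26 at the highest cluster of each table ahead of each hairpin, with none listed ahead of Mir19a with exon 5, in the authors' deposited tables. Rbm38 listed no cluster ahead of Mir17, and had 2.73 and 3.14 immediately ahead of Mir19a and Mir20a in the authors' deposited table.

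In the 5000 nt ahead of Mir23a, Rbm38 had 9 clusters, 7 of them enriched by either call at 1.46 to 2.75 in the authors' deposited table, whereas Puf60 had a single cluster 43 nt ahead of the hairpin in each table, at 2.58 with exon 5 and 2.98 without exon 5. Mirlet7a-1 had Puf60 clusters 38 nt ahead of the hairpin at 2.73 with exon 5 and 2.04 without exon 5 by the authors' deposited tables, and none for Rbm38. Ahead of Mir298, in the imprinted Gnas region, Rbm38 had 13 clusters and 5 enriched, 10 by the recomputed calls, up to 1.97, whereas Puf60 had 4.59 with exon 5 at 625 nt and 3.76 without exon 5 at 600 nt in the authors' deposited tables. Past Mir137, a microRNA of neuronal differentiation, Puf60 with exon 5 had 9 clusters with 4 enriched, up to 4.39, while Puf60 without exon 5 had 1, at -1.29, and Rbm38 had 2, at 0.24 and -0.70, none enriched, in the authors' deposited tables.

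Clusters outside genes often stood in long runs, defined as clusters on the same strand with less than 1000 nt between neighbours. There were 3448 runs over the 3 tables, of which 2453 held a single place and 115 held 10 or more. The 10 largest held 15.6%, 15.9% and 14.3% of the clusters outside genes. By the authors' calls 35.6%, 29.2% and 37.4% of those were enriched. For Puf60 with exon 5 this was close to the share over all clusters outside genes, and in the other tables it was below. For Rbm38 the direction depended on the call. With the recomputed calls its share in these runs lay above its share over all clusters outside genes. The run with most clusters covered chr5:7903736-7937935 on the minus strand, between the pseudogene Gm8802 and the lncRNA gene Gm30835, whose 3′ end lies on the same strand 7299 nt ahead of the run. It held 146 clusters with 51 enriched with exon 5, 121 with 35 without exon 5, and 122 with 72 for Rbm38, of which the recomputed calls made 106. The neighbouring run at chr5:7692436-7723135 on the same strand had 12 of 84, 11 of 123 and 10 of 42 enriched, or 19 of the 42 by the recomputed calls.

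Enriched shares differed between runs, and those of Rbm38 moved with the call. At chr19:12509301-12528750 on the plus strand, ending 13 nt before the pseudogene Gm6545, 33 of 46 clusters were enriched with exon 5 and 29 of 44 without exon 5, against 24 of 58 for Rbm38. The recomputed calls gave 35, 29 and 42 there. Its highest cluster, at 12517551 to 12517700, stood at 6.42 with exon 5 and 7.41 without exon 5 by the authors' deposited tables and was not listed for Rbm38. At chr13:89364986-89384535 on the minus strand, between Edil3 and Gm34699, 25 of 38 and 32 of 64 Puf60 clusters were enriched, and Rbm38 listed 2, none enriched. At chr3:6785536-6799035 on the minus strand 28 of 40 Rbm38 clusters were enriched, against 12 of 34 with exon 5 and 10 of 32 without exon 5, and the recomputed calls gave 35 of 40, against 16 and 13. The run at chr15:85671751-85703750, on the plus strand and ending 23 nt before the lncRNA gene Lncppara, had 9 of 58, 10 of 64 and 17 of 110 enriched, and 12, 14 and 57 by the recomputed calls.

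**Figure D4:**
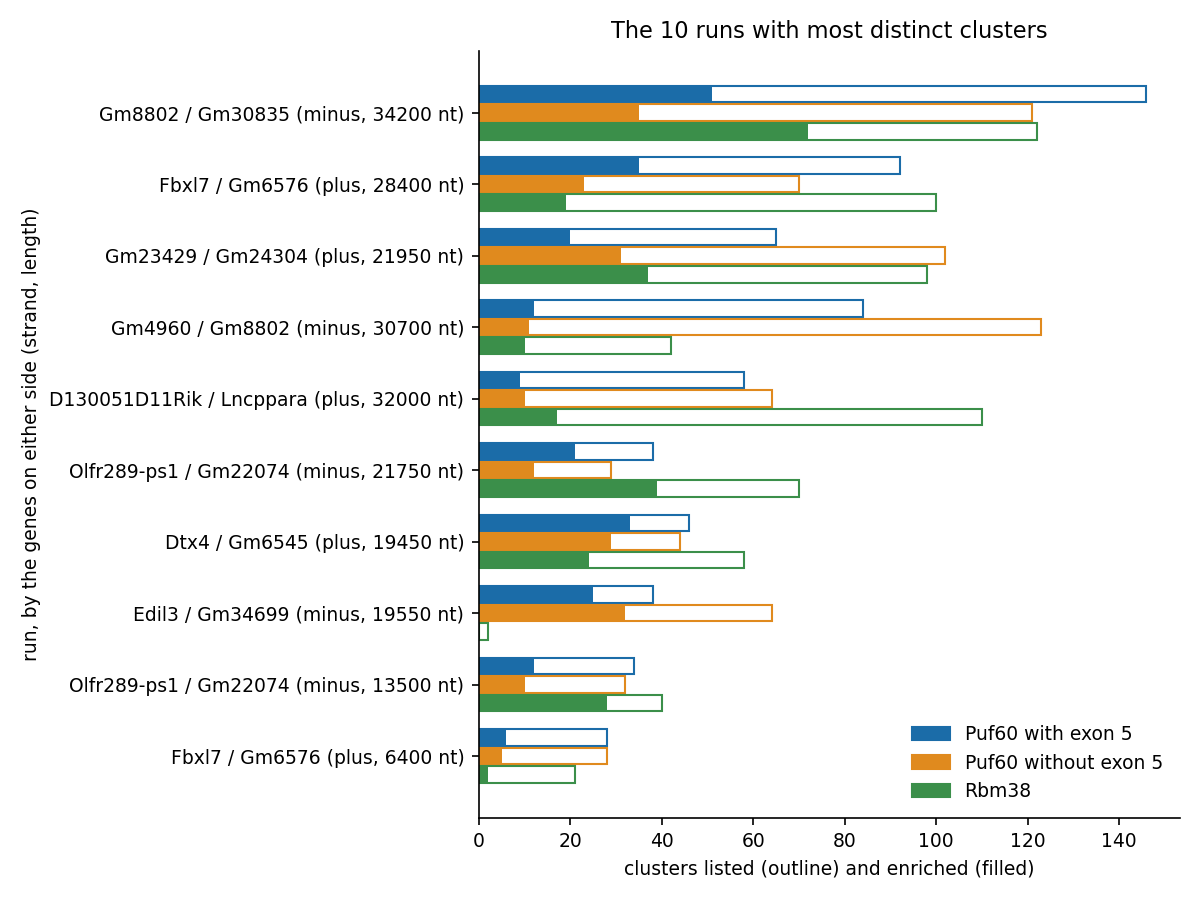
Number of clusters (x axis) in each of the 10 runs with most distinct clusters, named by the genes on either side (y axis, with strand and length); outlines give the clusters listed and filled bars those enriched, for the 3 tables. The run before Gm6545 has 33 of 46, 29 of 44 and 24 of 58 enriched, and the run beside Edil3 has 2 Rbm38 clusters, none enriched.

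The highest single clusters, taken as the 5 highest enriched ones per table and distance class with 1 per run, were shared by the Puf60 isoforms. By the authors' calls most were not shared with Rbm38, which held for the enriched Puf60 clusters outside genes in general. Each of the 10 with exon 5 was also listed and enriched without exon 5, and each of the 10 without exon 5 was listed and enriched with exon 5. Of the same 10 and 10, Rbm38 listed 9 and 7 and had 2 and 2 enriched by the authors' calls. Those not called include a log2 fold of 4.56 past Rock1, and no recomputed count is given for this list. These counts describe the extremes, which the choice by height fixed in the first table. Over all enriched clusters outside genes, 29.3% with exon 5 and 26.5% without exon 5 overlapped an enriched Rbm38 cluster. With the other isoform these shares were 71.7% and 73.5%.

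Near genes the highest lay 2306 nt past the end of the zinc finger gene Zfp935, at chr13:62450686-62450735 on the minus strand. It stood at 7.13 with exon 5 and 7.84 without exon 5, against -1.34 for Rbm38, in the authors' deposited tables. Odorant receptor genes were the nearest gene of 4 of the 5 highest near clusters with exon 5 and of 3 of those without exon 5. Odorant and vomeronasal receptor genes together were nearest to 21.0% and 21.8% of all near clusters of these tables. Past Olfr578 the values were 6.27, 7.42 and 2.88, and past Olfr46 6.72, 6.13 and 0.60, for Puf60 with exon 5, without exon 5 and Rbm38 in the authors' deposited tables. Rab21, which encodes an endosomal GTPase, had a cluster 1927 nt past its end at 6.14 with exon 5 and 6.49 without exon 5 by the authors' deposited tables.

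Far from genes the highest was at chr18:10052136-10052185, 12241 nt past the 3′ end of the protein kinase gene Rock1. It stood at 7.65 with exon 5, 6.47 without exon 5 and 4.56 for Rbm38 in the authors' deposited tables, although the last was not called enriched, with an adjusted p of 1. The cluster 5542 nt past Susd6 stood at 7.47, 6.52 and 1.18 in the authors' deposited tables. Past Inhbb, which encodes an activin subunit, a cluster at 31503 nt stood at 5.17 with exon 5 and 6.63 without exon 5 by the authors' deposited tables and was not listed for Rbm38.

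The highest Rbm38 cluster near a gene lay 1049 nt ahead of Dennd1b, an exchange factor gene for Rab GTPases, on the opposite strand, at 5.98 for Rbm38, against 0.40 with exon 5 and -0.32 without exon 5 by the authors' deposited tables. Far from genes, the 5 highest Rbm38 clusters lay between 5.17 and 5.58 in the authors' deposited table, and 2 of these 5 were enriched in each Puf60 table. Those 2, nearest to Gm15294 and Gm24554, stood at 1.16 and 1.61 with exon 5 and at 1.65 and 1.62 without exon 5 by the authors' deposited tables. Another was 9505 nt past the end of Tmeff2, a gene for a transmembrane protein with follistatin domains. It stood at 5.18, against -0.32 with exon 5 and -0.27 without exon 5 by the authors' deposited tables.

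Overlap on the same strand, by at least 1 nt, was high between the Puf60 isoforms. With exon 5, 71.7% of enriched clusters (69.4 to 73.9) met one enriched without exon 5, and in the other direction 73.5% did (71.2 to 75.7). Clusters not enriched overlapped an enriched one of the other isoform in 4.01% and 5.47%. With Rbm38 the shares were much lower. Enriched clusters overlapped an enriched Rbm38 cluster in 29.3% with exon 5 and 26.5% without exon 5, and clusters not enriched did so in 23.8% and 24.6%. The recomputed calls gave 38.8% and 34.0% of enriched clusters, and 32.3% and 33.9% of the others. Of the enriched Rbm38 clusters 23.3% and 21.6% overlapped an enriched one with exon 5 and without exon 5, against 14.9% and 13.6% of those not enriched. The recomputed calls gave 25.1% and 22.6%, against 14.6% and 14.1%. By the authors' calls 73.3% of the enriched Rbm38 clusters overlapped an enriched cluster of neither isoform. Only 50.2% and 54.2% of them overlapped any listed cluster, enriched or not, with exon 5 and without exon 5. The 73.3% therefore includes places that the Puf60 tables do not list, and no such share over the whole tables is given.

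Near genes the overlap with Rbm38 was lower still. There 21.1% of enriched clusters with exon 5 met an enriched Rbm38 cluster, below the 28.8% of those not enriched, whereas far from genes it was 34.6% against 21.2%. Without exon 5 the near shares were 17.3% and 33.3%, and the far shares 31.9% and 20.0%. The recomputed calls kept these directions, with 32.7% against 36.5% near and 42.5% against 30.2% far with exon 5, and 26.5% against 43.5% near and 38.4% against 28.9% far without exon 5.

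Clusters of 2 tables were paired when each overlapped the other more than any further cluster. The isoforms gave 2525 pairs, whose log2 folds correlated with r = 0.95 and differed by a median of 0.11 with exon 5 minus without exon 5 (SD over pairs 0.67). Both were enriched in 1032 pairs, only that with exon 5 in 142, only that without exon 5 in 77, and neither in 1274. Between Puf60 with exon 5 and Rbm38 the 2010 pairs correlated with r = 0.32, with 0.09 over the 703 near pairs and 0.45 over the 1307 far pairs. These correlations run over clusters that share input libraries within a table, and are descriptions.

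**Figure D5:**
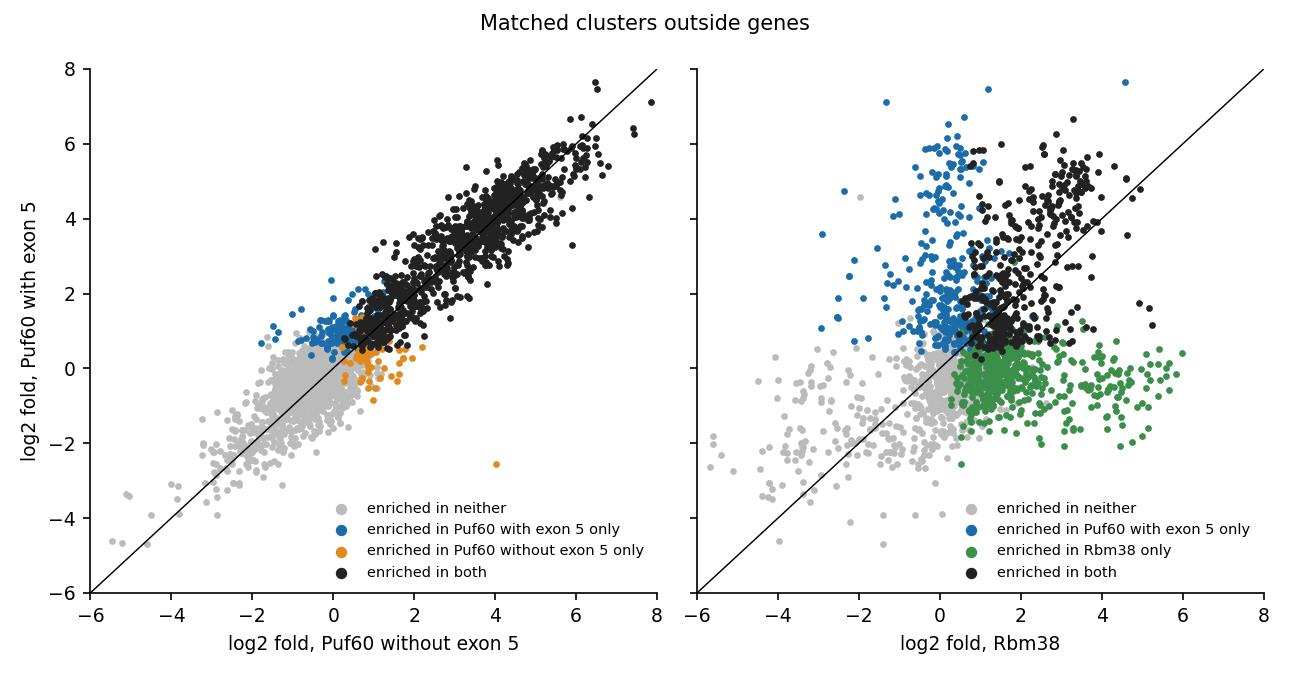
Log2 fold of CLIP over input with exon 5 (y axis) against that without exon 5 (left, x axis) and that of Rbm38 (right, x axis), 1 point per matched pair of clusters outside genes, coloured by the table in which it was enriched; the line marks equal values. The isoforms follow the line (r = 0.95 over 2525 pairs), and with Rbm38 many pairs are high in 1 protein and near 0 in the other (r = 0.32 over 2010 pairs).

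A difference over 2 on the log2 scale occurred in 12 of the 1251 isoform pairs enriched in at least 1 table, 10 higher with exon 5 and 2 lower. The widest lay on the minus strand ahead of the histamine receptor gene Hrh2, at chr13:54190086-54190235 with exon 5, which stood at -2.57 and overlapped a 50 nt cluster at 4.01 without exon 5, a difference of -6.58 in the authors' deposited tables. The next, between Lrp2bp and the sorting nexin gene Snx25, stood at 3.29 with exon 5 and 5.90 without exon 5, where the cluster was wider without exon 5. The largest in the other direction, at chr10:47942336-47942385, stood at 1.12 with exon 5 and -1.49 without exon 5 by the authors' deposited tables. At chr15:85694801-85694950, in the run before Lncppara, the values were 2.37 with exon 5 and -0.05 without exon 5 by the authors' deposited tables. With no values per library, no difference between the isoforms could be tested.

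Enriched in all 3 tables were 301 matched clusters in 135 gaps, 77 of them near a gene end and 224 far, with a median of the lowest of their 3 log2 folds of 1.72. The 5 with the highest lowest value came from 3 gaps. The first, at chr11:3101301-3101400 on the plus strand ahead of Pisd-ps1, stood at 4.79 with exon 5, 4.58 without exon 5 and 4.93 for Rbm38 in the authors' deposited tables. Another 3 lay between chr9:3002051 and chr9:3023750, before the first annotated gene of that chromosome, and the last at chr2:98663951-98664100. The 4 lay between 5.07 and 5.73 with exon 5, between 4.40 and 5.24 without exon 5, and between 3.92 and 4.60 for Rbm38 in the authors' deposited tables.

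Those 3 gaps held 75 of the 301. In them 80.3% of 127 clusters with exon 5, 72.0% of 125 without exon 5 and 82.2% of 107 for Rbm38 were enriched. Without them the shares over clusters outside genes were 36.2%, 33.3% and 43.2%. Whether these stretches hold repeated sequence was not examined, since no genome or repeat annotation was used here.

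Some clusters outside genes overlapped a cluster of the other strand in the same table, 11% with exon 5 (10.1 to 12), 11.6% without exon 5 (10.7 to 12.6) and 13.5% for Rbm38 (12.6 to 14.5), against 2.67%, 2.61% and 3.0% in gene bodies. They were enriched less often than the others, 22.9% against 39.4%, 19.2% against 36.4% and 39.2% against 44.9%, or 28.5% against 43.3%, 24.9% against 39.7% and 55.2% against 60.8% by the recomputed calls. Such overlap gathered in certain gaps. Between the β-tubulin gene Tubb3 and Def8 it was 77.1% of 131 listings, between Clec2h and Klrb1 70.4% of 54, and between D10Wsu102e and Gm8270 48.6% of 459, whereas in both gaps beside Gm8802 it was 0%. Its part in the other results was not tested beyond leaving these clusters out.

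Odorant and vomeronasal receptor genes were the nearest gene of 303, 330 and 379 near clusters, which is 21.0%, 21.8% and 20.7% of the near clusters. They were taken by symbol, so that receptor pseudogenes such as Olfr289-ps1 count among them. With these they number 2073 in the annotation, are 4.15% of all genes and lie nearest to 6.63% of the bases under 5000 nt from a gene. Enriched were 42.6%, 38.5% and 54.6%, beside the 40.8%, 35.7% and 50.6% of all near clusters. The median log2 folds when enriched were 3.79 with exon 5, 3.85 without exon 5 and 1.91 for Rbm38. On the receptor's strand lay 141, 153 and 176 clusters, and on the opposite strand 92, 97 and 121. Their own RNA was not measured here.

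The mitochondrial genome has 1 stretch outside genes, the control region between TrnP and the end of the molecule as numbered. It held 4, 2 and 3 clusters, none of them enriched. Their log2 folds were between -4.12 and -2.02 with exon 5, at -3.82 and -2.96 without exon 5, and between -2.23 and 0.05 for Rbm38 in the authors' deposited tables.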

How the data were processed

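RNA bound by the 3 Flag-tagged proteins was measured by iCLIP, and per the labels' protocols input RNA of the same size range was sequenced beside it. The submitters' processing notes name TopHat, edgeR and the builds NCBIM37 and mm10, with no versions or roles; how clusters were called is not given in the sources used here. Per the file headers, each deposited table holds a log2 fold change, a p-value and an FDR per cluster. These log2 values were read as CLIP over input, the authors' own comparison, and the tables hold 0 columns of values per library.

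Cluster starts modulo 50 gave the strand (0 plus, 35 minus). A gene's strand came from RefSeq where its sequence tables give it (28097 genes), otherwise from at least 3 clusters of which 80% shared a strand (937 genes); the sources agreed for 98.8% of 3375 genes. Coordinates are 1-based. The planned regions were named by rule: the 5 highest enriched clusters per table and distance class, the 10 runs with most clusters, the 5 highest in all tables and the 5 widest isoform differences each way. The genes past whose 3′ ends most Rbm38 clusters lay were chosen after their values were seen. Members and lists were chosen with earlier results of these data known. Because some deposited adjusted p-values are 1 beside a small p-value, calls were repeated with an adjusted p recomputed by Benjamini-Hochberg over each table. Intervals are Wilson's and Newcombe's at 95%. Alternatives covered the gene table, distance limit, call rule, runs, overlap and strand source. The steps were tested on simulated clusters. Python 3.11.15, pandas 2.3.3, numpy 2.4.6, scipy 1.17.1 and matplotlib 3.10.9 were used.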

Additional observations from a re-analysis of the deposited data

How the results depend on the processing

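Of 135 values under alternatives, 92 kept their direction and lay inside the interval of the value reported, or, for counts, within 1.5 times of it. The rest are given here. With protein-coding gene bodies alone, 6361, 6802 and 7255 clusters counted as outside genes for Puf60 with exon 5, without exon 5 and Rbm38. A limit of 2000 nt left 894, 928 and 1119 clusters near a gene end. The difference in enriched share between near and far clusters depended on how runs and crowded gaps were counted. With each run counted once it was 0.46 points with exon 5 and -1.22 without exon 5, and it stayed at 11.1 for Rbm38. Without the 10 gaps with most clusters, an alternative chosen after seeing the data, it was -0.95, -2.79 and 7.59 points. Asking for 50% of both clusters in the overlap gave 64.7% of enriched clusters with exon 5 overlapping those without exon 5, 66.9% the other way, 24.5% and 21.6% of those with exon 5 and without exon 5 overlapping Rbm38, and 18.3% and 15.7% of those of Rbm38 overlapping Puf60 with exon 5 and without exon 5. Ignoring strand gave 32.2%, 29.6%, 25.7% and 23.8% for the last 4. With only genes whose strand RefSeq and the clusters gave alike, the enriched share past the 3′ end on the same strand was 27.0% with exon 5 and 17.9% without exon 5. Ahead of the 5′ end it was then 39.7%, 41.2% and 22.6%, and past the 3′ end on the opposite strand it was 35% without exon 5. With the nearest protein-coding gene the Rbm38 share past the 3′ end was 63.6%. An adjusted p recomputed by Benjamini-Hochberg over the deposited p-values, planned for the count of enriched clusters and extended to the other results after seeing the data, brought outside minus inside to -1.76 points for Rbm38. Overlap of enriched clusters with Rbm38 was then 38.8% with exon 5 and 34.0% without exon 5. The Rbm38 share was then 73.8% past the 3′ end and 53.0% ahead of the 5′ end on the same strand, and 66.7% past the 3′ end on the opposite strand, where Puf60 without exon 5 had 48.9%. The next 3 alternatives were also added after seeing the data. With each run counted once the share past the 3′ end was 45.1% with exon 5, 41.8% without exon 5 and 66.6% for Rbm38, and ahead of the 5′ end it was 44.6% for Rbm38. Outside minus inside was 1.95, 0.85 and -2.25 points without the 10 gaps with most clusters, and -9.06 for Rbm38 with a log2 fold of at least 1. The cause of these shifts was not tested. Leaving out clusters that overlap one of the other strand, or the 3 gaps that hold the leading clusters of all tables, also chosen after seeing the data, reversed none of the results it was run on, but near minus far for Puf60 without exon 5 was 3.35 points without the 3 gaps (0.37 to 6.37) and 4.14 with the planned log2 fold of at least 1 (1.25 to 7.06), and both intervals exclude 0.

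No paired analysis was possible because the tables hold the authors' comparison and no value per library. Leaving out a replicate was not possible for the same reason. Depth per library is unknown, so a cluster missing from a table cannot be told from one too thinly covered to be listed. The strand is inferred, the annotation used here has no exons, and sequence was at hand only in promoter windows and microRNA genes.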

Other observations

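A few gaps between genes were crowded with clusters in 1 Puf60 table and nearly empty in the other, although most crowded gaps were listed about evenly. The rule was chosen after the data were seen. Of 43 gaps with 30 or more Puf60 clusters over both tables, 31 had between 40% and 60% of them in the table with exon 5, and the median was 48.6%. Over 80% lay in the table with exon 5 in 1 gap, and under 20% in 3. Others were uneven to a lesser degree, such as 31 with exon 5 and 9 without exon 5 between Emc2 and Gm2140. Between 4930474H20Rik and Gm25495 the counts were 9 and 21. Beyond Mir137, at chr3:118434001-118496200 on the plus strand, 75 clusters were listed with exon 5 and 10 without exon 5, and Rbm38 had 15. Between the lncRNA gene Gm33458 and Gm13527, at chr2:56833486-57068585 on the minus strand, 1 was listed with exon 5 and 51 without exon 5, and Rbm38 had 6. Between Gm41680 and Gm34327, at chr18:29965686-30015435 on the minus strand, the counts were 4, 39 and 5, and beside Lrp1b, at chr2:42699486-42750585 on the minus strand, they were 4, 27 and 3.

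Few of these clusters were enriched, except between Gm41680 and Gm34327. Over all clusters outside genes 37.6% were enriched with exon 5 and 34.4% without exon 5. Beyond Mir137 it was 8 of 75 with exon 5. Without exon 5 it was 10 of 51 between Gm33458 and Gm13527 and 4 of 27 beside Lrp1b. Between Gm41680 and Gm34327 it was 17 of 39 without exon 5, above the share over all. The clusters kept to 1 strand in each of the 4 gaps. A listed cluster without enrichment shows reads in CLIP or input and not binding above input, and the isoform, the induction time and the cell line of each transgene cannot be told apart here.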
